A study of Mus musculus with 7 samples.

Results

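Keratin genes were followed across 7 arrays of sorted mouse Langerhans cells, which are dendritic cells living in the epidermis, as transcripts that the keratinocytes around these cells make in bulk. The members were all rows of the annotated expression table whose symbol is Krt followed by digits and at most 1 letter, with the brightest probe set taken for each symbol. This gave 49 keratin genes of 21755 gene symbols, each with a single probe set. The 7 samples are irradiated 1, 2 and 3, Langerhans cells of adult wild type C57:Bl6 mice given 12 Gy of ionizing radiation, and controls 1, 2, 3 and 4, the same cells of naive mice of that strain and genotype. Cells were sorted by flow cytometry and pooled to more than 10000 per sample, while neither the interval from irradiation to sorting nor the gate is stated in the labels. The labels do not say whether the samples of a group are separate mice or pools. The p-values therefore measure only how far these samples spread, and that spread may be technical. The labels of controls 1 and 4 each cite an earlier record, unlike those of the remaining 5 samples. The question addressed was how much epithelial RNA each sample carried and whether the keratins differed between irradiated and control samples.

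Keratins are the intermediate filament proteins of epithelia, and each filament pairs a type I with a type II chain. Dividing basal keratinocytes make Krt5 with Krt14, and cells that leave the basal layer switch to Krt1 with Krt10. Krt8 with Krt18 serve single-layered epithelia, while further sets serve the hair follicle and the hair shaft. A Langerhans cell is of haematopoietic origin and is not known for epidermal keratins, but it sits among keratinocytes and adheres to them.

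The sequences around the starts of 3 of these genes are shown because Krt5 and Krt14 kept the same order over the arrays and Krt10 did not. They run from 250 bases before to 50 bases after the annotated start and come from RefSeq for GRCm38.p6, all on the minus strand. Capitals mark the TATAAA core of a TATA box, searched on both strands.
Krt5, chr15:101712856-101713155: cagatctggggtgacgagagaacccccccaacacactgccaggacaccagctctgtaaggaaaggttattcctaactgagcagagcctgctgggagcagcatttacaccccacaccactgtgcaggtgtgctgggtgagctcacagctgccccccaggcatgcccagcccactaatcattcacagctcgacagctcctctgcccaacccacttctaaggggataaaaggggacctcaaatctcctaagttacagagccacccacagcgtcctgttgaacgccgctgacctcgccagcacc
Krt14, chr11:100205981-100206280: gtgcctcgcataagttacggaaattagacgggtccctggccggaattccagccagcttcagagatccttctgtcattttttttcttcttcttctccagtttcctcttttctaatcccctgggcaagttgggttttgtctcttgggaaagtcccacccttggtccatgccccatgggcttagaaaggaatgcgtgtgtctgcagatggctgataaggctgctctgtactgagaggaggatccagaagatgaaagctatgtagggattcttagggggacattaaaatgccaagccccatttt
Krt10, chr11:99389315-99389614: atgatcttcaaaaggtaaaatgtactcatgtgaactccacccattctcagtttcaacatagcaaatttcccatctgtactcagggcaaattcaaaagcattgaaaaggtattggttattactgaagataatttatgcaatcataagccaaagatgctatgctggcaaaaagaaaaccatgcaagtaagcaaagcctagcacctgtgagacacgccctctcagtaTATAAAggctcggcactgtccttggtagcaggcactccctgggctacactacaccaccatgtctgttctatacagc
The Krt10 window holds the motif, beginning 26 bases before the start, and the letters are not in the Krt5 and Krt14 windows. Of the 49 members, 34 matched the RefSeq promoter table with 35 windows, and 18 of these (51.4%) held the motif, against 4473 of 32851 windows over all genes (13.6%). A match or its absence describes the letters around the annotated start only, and whether that start is the one used in epidermis was not tested. The search took the exact letters, so near forms of the motif are not counted. Any link of the motif to the order of the arrays was not tested.

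Intensities were compared as log2 values, so that a step of 1 is a doubling. The 40% of symbols with the lowest mean, below 6.07 log2, were left out of the test as dim, which left 13053 genes. Of the keratins 26 were tested and 23 were dim. Dim here means only below that limit, and levels of different genes are not compared with each other because each probe set has its own brightness. Across the 13053 genes irradiated 1 stood apart, with Pearson correlations of 0.650 to 0.728 with the other arrays, against 0.858 or more among those. The Langerhans cell gene Cd207, which encodes langerin, was at 5.64 log2 in irradiated 1 and 12.35 and 11.86 in irradiated 2 and 3, against 8.85 to 11.49 in controls. The leukocyte gene Ptprc was at 5.61 in irradiated 1 and 9.30 in irradiated 2 and 3, against 9.21 to 10.41 in controls. Irradiated 1 thus went against its cell type label on these markers, and the main comparisons below are given with and without it. Xist, the RNA that coats the inactive X chromosome, was at 5.31 to 5.93 in irradiated samples and 10.94 to 11.71 in controls, so sex and irradiation cannot be told apart in any result here.

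No keratin passed the test between irradiated and control samples (limma, adjusted p under 0.05 over 13053 genes): 0 of 26 were higher and 0 lower. Over all genes tested 0.115% were called higher and 1.56% lower. Without irradiated 1 the keratin count was again 0 of 26, while 1.58% of all genes tested were called higher and 3.06% lower, 4.63% together. At an unadjusted p under 0.05 there were 3 keratins, Krt7, Krt1 and Krt15, against 19.7% of all genes tested. The lowest adjusted p of a keratin was 0.162, for Krt7. With array weights, which count the more variable arrays for less, 3 keratins passed (Krt1, Krt7 and Krt27), as did 3476 of the 13053 genes.

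Over all 49 keratins the median log2 fold change, irradiated minus control, was 0.19, beside 0.06 over all 21755 symbols. A higher mean in irradiated samples was seen in 43 of 49 keratins (87.8%), where 59.2% of all symbols and 80.6% of the dim ones had one. Without irradiated 1 the median was 0.08 and 35 of 49 had a higher mean, beside 0.03 and 54.7% over all symbols. By class the medians with all arrays were 1.21 for the 3 basal keratins, 0.34 for the 7 suprabasal, 0.31 for the 7 stress and follicle sheath keratins, 0.17 for the 5 simple keratins and 0.16 for the 13 hair shaft keratins. Without irradiated 1 they were 0.85, 0.08, 0.00 after rounding, -0.04 and 0.09. Of the 26 tested keratins, Krt7 lay higher in every irradiated sample than in any control and Krt1 lower, while 3.46% of all genes tested lay apart and higher and 15.3% apart and lower. Without irradiated 1 the same was true of 1 keratin higher (Krt7) and 3 lower (Krt1, Krt80 and Krt6a), beside 10.2% and 20.3% of all genes tested.

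**Figure D1:**
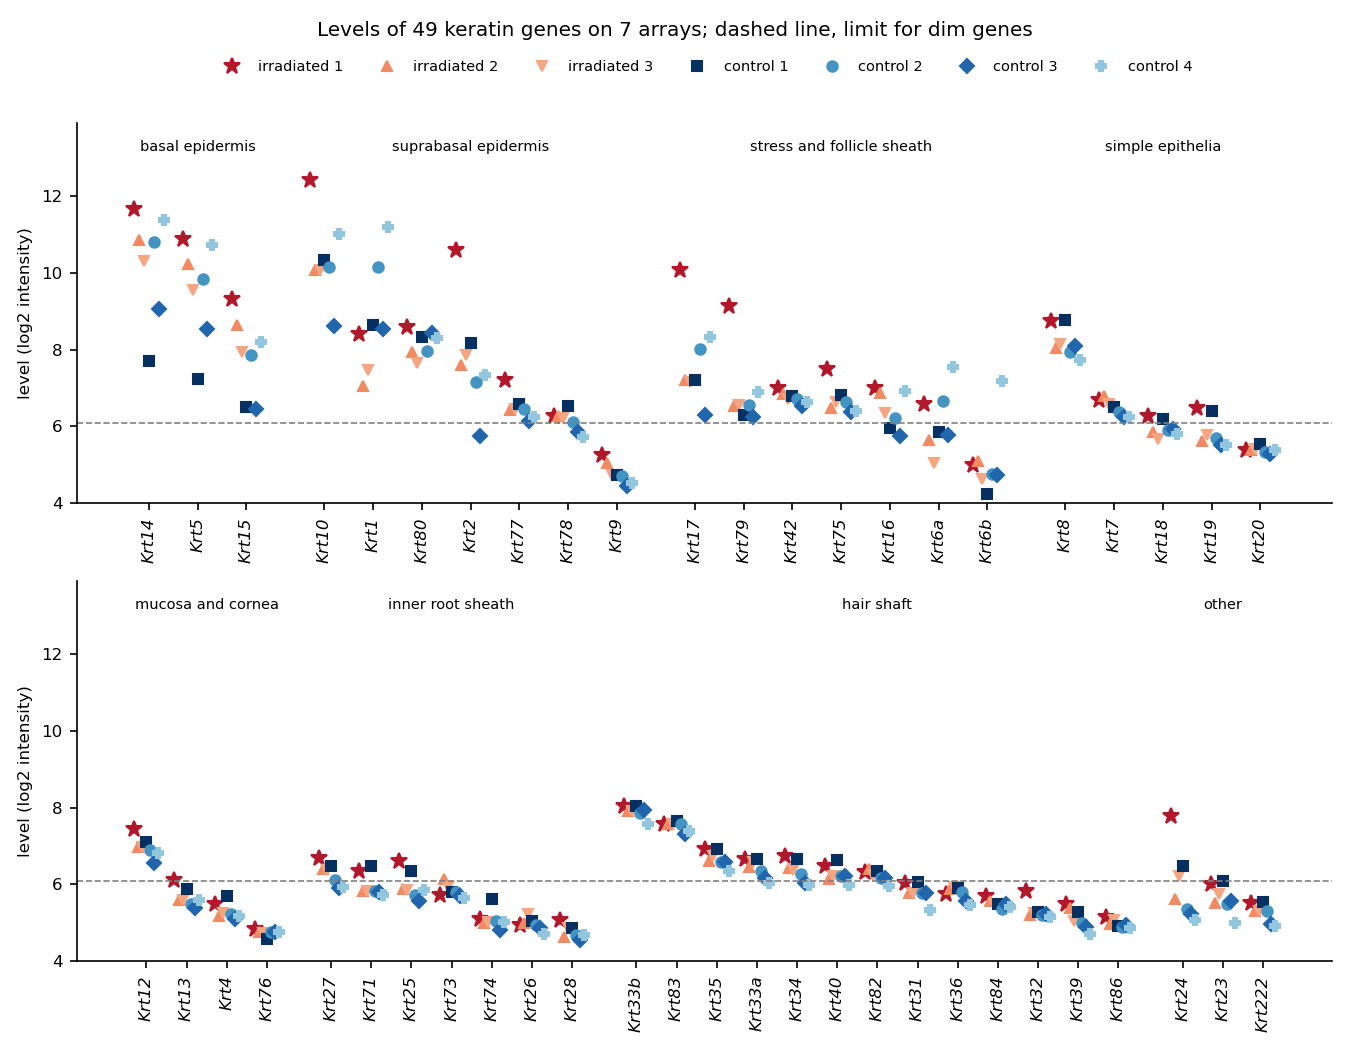
Level of each of the 49 keratin genes (log2 intensity, vertical axis) in irradiated 1 to 3 (red shades) and controls 1 to 4 (blue shades), grouped by the epithelium that makes them. The dashed line at 6.07 marks the limit for dim genes, and 11 keratins, among them Krt5, Krt14, Krt1, Krt10, Krt2 and Krt17, range over 2 log2 units or more, while each hair shaft keratin stays within 0.77.

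The basal keratins spread widely over the arrays, with ranges of 2.86 to 3.97 log2. Krt14, the type I chain of basal keratinocytes, was at 11.65, 10.84 and 10.32 log2 in irradiated 1, 2 and 3, against 7.69, 10.80, 9.06 and 11.38 in controls 1 to 4. The irradiated samples all lay above controls 1 and 3, while control 4 lay above irradiated 2 and 3, so the groups overlapped. The mean was 10.94 ± 0.67 in irradiated (SD, n = 3) and 9.73 ± 1.68 in control samples (SD, n = 4), a log2 fold change of 1.21 (SE 0.86, limma adjusted p = 0.465). Krt5, its type II partner, was at 10.89, 10.23 and 9.56 log2 in irradiated 1, 2 and 3, against 7.24, 9.84, 8.53 and 10.73 in controls 1 to 4. Its log2 fold change was 1.14 (SE 0.79, limma adjusted p = 0.452). From low to high, the order of the 7 arrays was the same for both genes: control 1, control 3, irradiated 3, control 2, irradiated 2, control 4, irradiated 1. The difference Krt5 minus Krt14 within an array stayed between -0.96 and -0.44, a range of 0.51, while each gene ranged over more than 3 log2 units.

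Krt15, a keratin of basal cells and of the hair follicle bulge, was at 9.31, 8.64 and 7.94 log2 in irradiated 1, 2 and 3, against 6.49, 7.86, 6.45 and 8.18 in controls 1 to 4. Irradiated 1 and 2 lay above every control and irradiated 3 below control 4. The log2 fold change was 1.38 (SE 0.52, limma adjusted p = 0.207), and 1.04 without irradiated 1. For Krt5 and Krt14 it was 0.81 and 0.85 without irradiated 1. Single controls moved these values both ways. Without control 1 the log2 fold change was 0.53 for both Krt5 and Krt14 and 1.13 for Krt15. Without control 4 it was 1.69 for Krt5, 1.76 for Krt14 and 1.69 for Krt15. Without both irradiated 1 and control 1, a comparison added after the data were seen, it was 0.20, 0.17 and 0.79.

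Much of this spread lay among the controls. Krt14 spanned 3.69 log2 over the 4 controls, which is 12.9-fold in intensity, and Krt5 11.2-fold. Of the 13053 genes tested, 0.245% had a control range at least as wide as that of Krt14 and 0.368% one as wide as that of Krt5. Controls 1 and 4, whose labels cite earlier records, lay at the low and the high end, and controls 2 and 3 in between. Against controls 2 and 3 alone the median log2 fold change of the 3 basal keratins was 1.04.

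**Figure D2:**
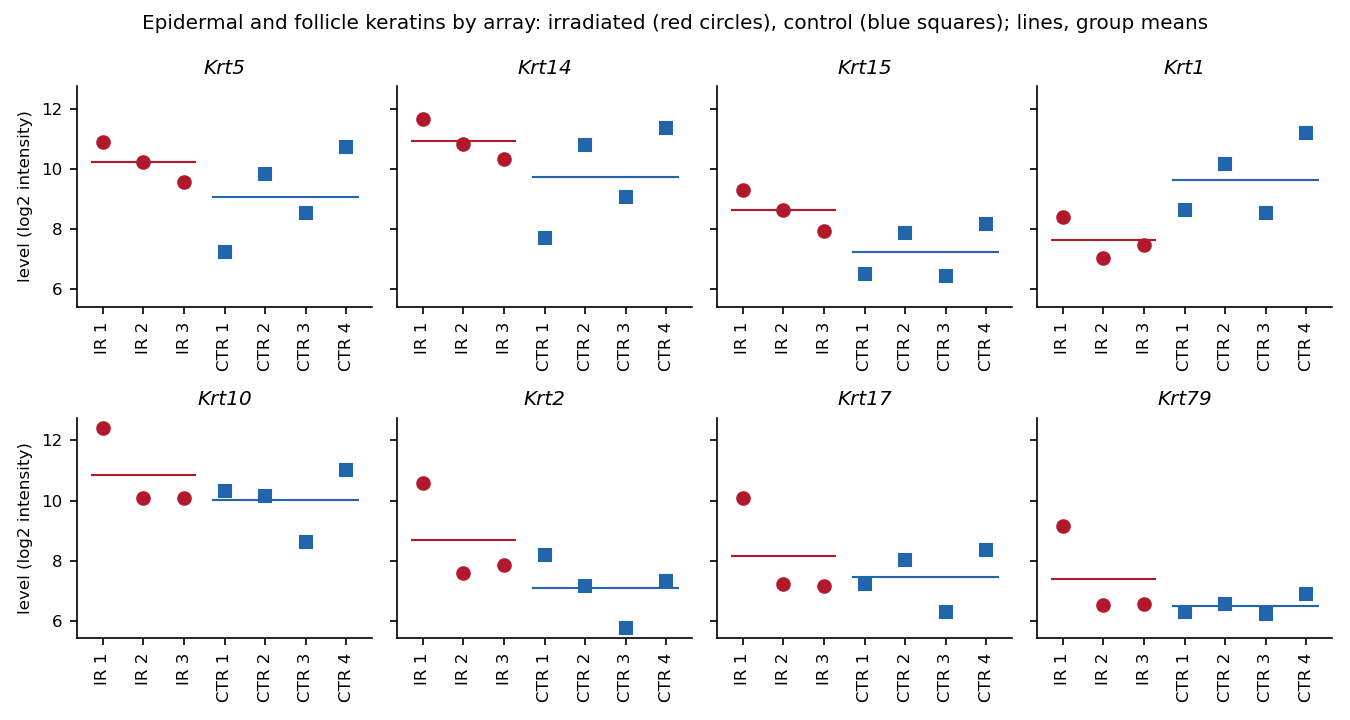
Log2 intensity of 8 keratin genes on each array, irradiated samples as red circles on the left and controls as blue squares on the right of each panel, with horizontal lines at the group means. Krt5 and Krt14 share 1 order over the arrays, Krt1 is lower in all 3 irradiated samples than in all 4 controls, and Krt2, Krt17 and Krt79 are highest in irradiated 1.

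Among the suprabasal keratins, the partners Krt1 and Krt10 differed in pattern. Krt1, the type II chain of spinous keratinocytes, was at 8.41, 7.05 and 7.47 log2 in irradiated 1, 2 and 3, against 8.63, 10.16, 8.54 and 11.20 in controls 1 to 4. All 3 irradiated samples lay below all 4 controls, irradiated 1 only just below control 3. The means were 7.64 ± 0.70 (SD, n = 3) and 9.63 ± 1.28 (SD, n = 4), a log2 fold change of -1.99 (SE 0.68) that did not pass (limma adjusted p = 0.177). Without irradiated 1 it was -2.38 (limma adjusted p = 0.117), without control 4 -1.47, and over all alternatives the adjusted p ran from 0.0119 with array weights to 0.457.

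Krt10, the type I partner of Krt1, was at 12.43, 10.09 and 10.09 log2 in irradiated 1, 2 and 3, against 10.32, 10.15, 8.61 and 11.001 in controls 1 to 4. Irradiated 2 and 3 held exactly equal values and lay within the controls, and irradiated 1 lay 1.43 above the highest control. The log2 fold change was 0.85 (SE 0.73, limma adjusted p = 0.535), and 0.06 without irradiated 1. The difference Krt10 minus Krt1 was 4.02, 3.04 and 2.62 in irradiated 1, 2 and 3, against 1.69, -0.01, 0.07 and -0.20 in controls 1 to 4. These ranges did not overlap, and the group means were 3.23 ± 0.72 (SD, n = 3) and 0.39 ± 0.87 (SD, n = 4). Krt1 minus Krt5, which sets a suprabasal against a basal chain, was -2.48, -3.18 and -2.09 in irradiated 1, 2 and 3, against 1.39, 0.32, 0.01 and 0.47 in controls 1 to 4. The gap between the groups was wider for this difference than for either gene alone. Both differences were picked after their values were seen and carry no test, and their absolute size depends on the probe sets, so only the change between arrays can be read.

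**Figure D3:**
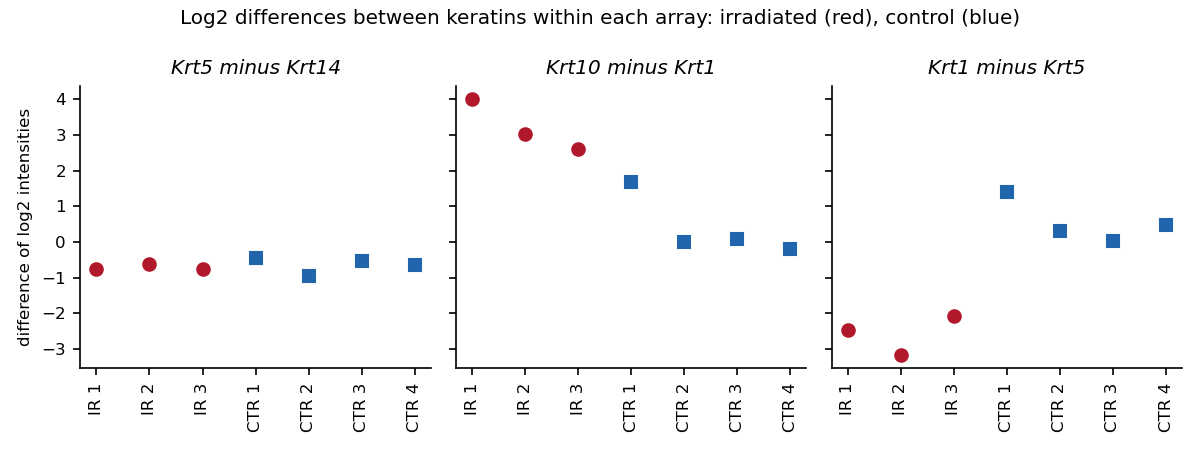
Difference of log2 intensities between the named keratins within each array, irradiated samples in red and controls in blue. Krt5 minus Krt14 stays within 0.51 over the 7 arrays, while Krt10 minus Krt1 is 2.62 to 4.02 in irradiated samples and -0.20 to 1.69 in controls, and Krt1 minus Krt5 is -3.18 to -2.09 in irradiated samples and 0.01 to 1.39 in controls.

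Krt2, a keratin of the upper spinous and granular layers, was at 10.60, 7.60 and 7.86 log2 in irradiated 1, 2 and 3, against 8.17, 7.16, 5.75 and 7.33 in controls 1 to 4. It was 2.43 higher in irradiated 1 than in the next array, control 1, and irradiated 2 and 3 lay within the controls. Its log2 fold change was the largest positive one of any keratin, 1.58 (SE 0.81, limma adjusted p = 0.325), and was 0.62 without irradiated 1. Control 1, which had the lowest Krt5 and Krt14, thus had the highest Krt2 and the second highest Krt10 of the controls. Krt80, made in several differentiating epithelia, was at 7.64 to 8.59 in irradiated and 7.97 to 8.42 in control samples. Krt77 and Krt78 had log2 fold changes of 0.34 and 0.20, or 0.08 and 0.19 without irradiated 1, and did not pass, and Krt9, the keratin of palm and sole epidermis, was dim on every array.

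The keratins of stressed epidermis and of the follicle sheath also differed in pattern from each other. Krt17, made in the outer root sheath and in wounded epidermis, was at 10.08, 7.20 and 7.16 log2 in irradiated 1, 2 and 3, against 7.20, 8.02, 6.29 and 8.34 in controls 1 to 4. Its log2 fold change of 0.68 (SE 0.79, limma adjusted p = 0.643) was -0.28 without irradiated 1. Krt79, a marker of the follicle infundibulum, was at 9.14 in irradiated 1 and between 6.23 and 6.88 in the other 6 arrays. Its log2 fold change was 0.92 (SE 0.60, limma adjusted p = 0.435) with irradiated 1 and 0.05 without it. Krt75, of the companion layer of the follicle, was at 7.48 in irradiated 1 and at 6.37 to 6.81 elsewhere. Krt42 ranged over 0.47 log2 only.

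Krt6a and Krt6b, type II chains induced in stressed epidermis, were highest in control 4. Krt6a was at 6.59, 5.64 and 5.05 log2 in irradiated 1, 2 and 3, against 5.85, 6.65, 5.77 and 7.54 in controls 1 to 4 (log2 fold change -0.69, SE 0.50, limma adjusted p = 0.469; -1.11 without irradiated 1). The dim Krt6b was at 7.18 in control 4 and at 4.23 to 5.09 in the other arrays. The sequences of these neighbouring genes are close, so their probe sets may share signal. Krt16, their type I partner, was at 6.99, 6.86 and 6.34 log2 in irradiated 1, 2 and 3, against 5.96, 6.22, 5.74 and 6.91 in controls 1 to 4, the order of Krt15 but for control 4 and irradiated 2 changing places. Its log2 fold change was 0.52 (SE 0.29, limma adjusted p = 0.358), and 0.39 without irradiated 1.

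**Figure D4:**
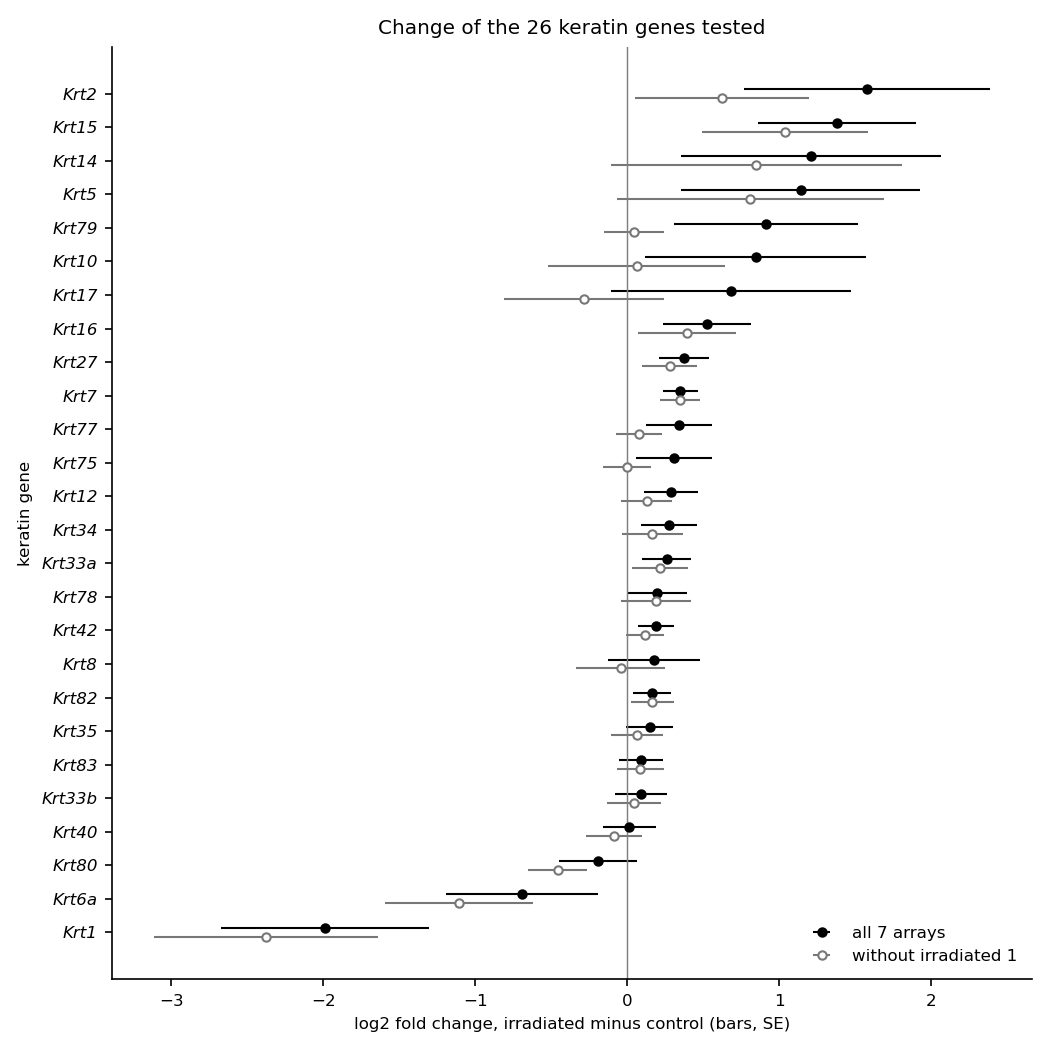
Log2 fold change, irradiated minus control, of the 26 keratin genes tested, with all 7 arrays (filled points) and without irradiated 1 (open points); bars are standard errors from limma. Krt1 is lowest at -1.99, and Krt2, Krt10, Krt17 and Krt79 move most towards 0 or below it when irradiated 1 is left out.

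The simple keratins ranged over 0.25 to 1.05 log2 each across the 7 arrays. Krt8, the type II chain of single-layered epithelia, was at 8.74, 8.03 and 8.14 log2 in irradiated 1, 2 and 3, against 8.78, 7.93, 8.09 and 7.73 in controls 1 to 4. Control 1 and irradiated 1 were the 2 highest, and the log2 fold change of 0.18 (SE 0.30, limma adjusted p = 0.761) was -0.04 without irradiated 1. Its partner Krt18 was dim, at 5.66 to 6.26 in irradiated and 5.78 to 6.20 in control samples. Krt19 and Krt20 were dim too. Krt7, a chain of glandular and ductal epithelia, was at 6.69, 6.78 and 6.58 log2 in irradiated 1, 2 and 3, against 6.50, 6.36, 6.23 and 6.25 in controls 1 to 4. The lowest irradiated sample lay just above control 1, and the log2 fold change was 0.35 both with irradiated 1 (SE 0.12, limma adjusted p = 0.162) and without it. Krt8, Krt18 and Krt20 also mark Merkel cells, the touch receptors of the epidermis, whose other markers had medians of 6.20 to 6.32 in irradiated and 5.83 to 6.27 in control samples.

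The hair shaft keratins had a median range of 0.57 log2, beside 0.74 over all symbols and 0.64 over the dim ones. The 13 hair shaft keratins ranged over 0.27 to 0.77 log2 each across the 7 arrays, and their median level was 6.14 to 6.31 in irradiated and 5.94 to 6.35 in control samples. Krt33b, a chain of the hair cortex, was at 8.05, 7.91 and 7.91 log2 in irradiated 1, 2 and 3, against 8.05, 7.86, 7.95 and 7.58 in controls 1 to 4. Its neighbour Krt33a is similar in sequence and may share signal with it. The symbol Krt83 is used for more than one hair keratin in the RefSeq table, so which gene its probe set reads is uncertain. Krt86, whose groups did not overlap, was dim, at 4.96 to 5.14 in irradiated and 4.87 to 4.95 in control samples. The 7 inner root sheath keratins ranged over 0.48 to 1.04, and of them Krt27 alone was tested (log2 fold change 0.38, SE 0.17, limma adjusted p = 0.264, and 0.28 without irradiated 1). Of the 16 follicle genes that are not keratins, 12 were highest in irradiated 1, and the median log2 fold change was 0.21 with it and 0.03 without it.

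Irradiated 1 and control 1 were the highest arrays for most keratins. Irradiated 1 had the highest value in 27 of 49 and control 1 in 14, where over all symbols the shares were 26.6% and 19.7%. Of the 23 dim keratins 19 were highest in 1 of these 2 arrays, where 55.9% of all dim symbols were. The median of the dim keratins was 5.68, 5.37 and 5.41 in irradiated 1, 2 and 3, against 5.62, 5.33, 5.23 and 5.18 in controls 1 to 4. The median of all dim symbols was 5.36, 5.36 and 5.15 in irradiated 1, 2 and 3, against 5.28, 5.15, 5.12 and 5.06 in controls 1 to 4. The part of this general shift in the levels of the dim keratins was not tested. Krt24, a type I chain, ranged more widely than every other dim keratin but Krt6b, at 7.78, 5.63 and 6.21 log2 in irradiated 1, 2 and 3, against 6.49, 5.36, 5.22 and 5.08 in controls 1 to 4. Exactly equal values in at least 2 arrays occurred in 16 of 49 keratins (32.7%) and in 28.5% of all symbols.

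Genes that hold keratin filaments to the cell surface did not share 1 pattern. Col17a1, a hemidesmosome collagen, was at 9.91, 9.31 and 9.01 log2 in irradiated 1, 2 and 3, against 7.39, 8.75, 7.46 and 9.06 in controls 1 to 4. The desmosome gene Dsp was at 10.87, 9.23 and 9.08 log2 in irradiated 1, 2 and 3, against 8.10, 8.88, 7.46 and 9.55 in controls 1 to 4. In both, controls 1 and 3 were the lowest arrays, as for Krt5 and Krt14. Plec, which encodes the linker plectin, was at 8.07, 8.44 and 8.86 log2 in irradiated 1, 2 and 3, against 8.26, 8.93, 8.93 and 8.73 in controls 1 to 4. Irradiated 1 was its lowest array and control 2 its highest, unlike Krt5. Dst was also highest in control 2, and the desmosome gene Dsc1 in control 1. None of the 10 hemidesmosome and basement membrane genes tested passed, nor any of the 10 desmosome genes or the 16 cornified envelope genes, and the medians of their log2 fold changes over all members were 0.53, 0.75 and 0.42. Without irradiated 1 the medians were 0.35, 0.28 and -0.01, again with none past the threshold.

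Among transcription factors of the epidermis, Ovol1, which restrains proliferation of keratinocyte progenitors, was at 7.51, 7.62 and 7.10 log2 in irradiated 1, 2 and 3, against 6.39, 6.37, 5.52 and 6.39 in controls 1 to 4 (limma adjusted p = 0.0570, and 0.0680 without irradiated 1). Trp63, the master regulator of stratified epithelia, was at 9.38, 7.76 and 7.65 log2 in irradiated 1, 2 and 3, against 6.92, 8.02, 7.19 and 8.46 in controls 1 to 4, with overlapping groups (limma adjusted p = 0.525, and 0.956 without irradiated 1).

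The genes most like the keratins were found by Pearson correlation with the mean log2 level of Krt5, Krt14 and Krt10, a description over few arrays that share their processing. Over the 7 arrays the 10 highest were Cd109, Rcan1, Sema3d, Ces2g, Trim29, Fam83b, Ehbp1, Sh3rf2, Lama3 and Wee1, with r from 0.969 to 0.987. Over the 6 arrays without irradiated 1 they were Trim29, Ces2g, Atp2b4, Cd109, Rhoj, Rcan1, Mpzl1, Mtmr11, Cd59a and Ehbp1, with r from 0.972 to 0.994. Cd109, the closest over 7 arrays, was at 8.79, 7.63 and 7.23 log2 in irradiated 1, 2 and 3, against 6.25, 7.69, 6.73 and 8.21 in controls 1 to 4. Irradiated 1 and control 4 were its highest arrays and controls 1 and 3 its lowest, as for Krt5. Ehbp1 and Wee1 ranged over 0.56 and 0.64 log2 only, so their likeness is in the pattern over the arrays and not in size. Their orders were not that of Krt5: Ehbp1 was lowest in control 3, and Wee1 was higher in irradiated 3 than in irradiated 2.

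Markers of other cell types differed between the arrays too. The fibroblast gene Dcn was at 13.37, 11.02 and 8.05 log2 in irradiated 1, 2 and 3, against 8.85, 11.49, 9.74 and 11.75 in controls 1 to 4. Its controls had the same order as for Krt5 and Krt14, and irradiated 3 was the lowest array for Dcn but not for Krt5 or Krt14. Summed over all 11 fibroblast markers, all of them tested, the intensity was 27852 in irradiated 1 and 4597 and 1256 in irradiated 2 and 3, against 1919 to 8872 in controls. Summed over the 49 keratins it was 19107 in irradiated 1 and 8312 and 7157 in irradiated 2 and 3, against 4896 to 12733 in controls. The 10 Langerhans cell markers, all tested, summed to 2230 in irradiated 1 and 49036 and 50344 in irradiated 2 and 3, against 33899 to 44296 in controls. The 7 erythroid markers, 5 of them tested, summed to 40943 in irradiated 1 and 2359 and 560 in irradiated 2 and 3, against 765 to 2088 in controls. The sums of the 9 endothelial markers were 1544 in irradiated 1 and 653 and 571 in irradiated 2 and 3, against 561 to 634 in controls. Each sum adds linear intensities, so the brightest probe sets of a list weigh most in it. No marker of these lists is listed at 0. In such bulk samples more cells of a type and more RNA per cell cannot be told apart, and the part of these cells in the keratin levels was not tested.

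**Figure D5:**
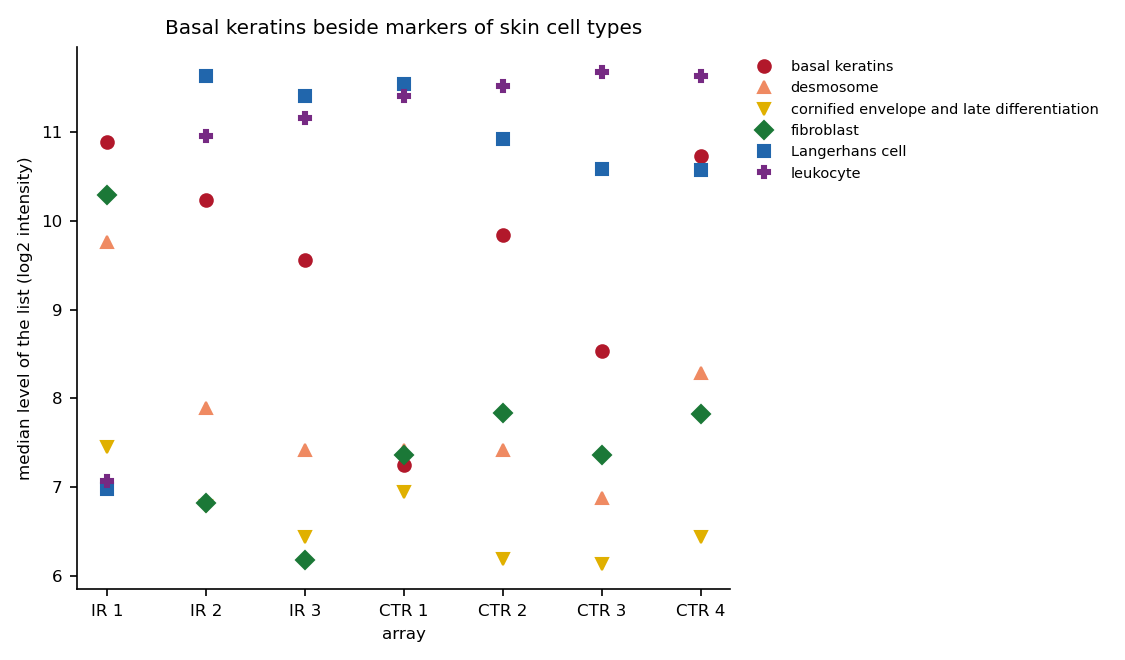
Median level (log2 intensity, vertical axis) of the basal keratins and of markers of 5 other gene lists on each array, irradiated samples on the left. In irradiated 1 the Langerhans cell and leukocyte medians are at 6.98 and 7.06 while the basal keratin median is at 10.89, and in the controls the basal keratins run from 7.24 to 10.73 while the leukocyte median stays between 11.40 and 11.68.

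The basal keratin level and the leukocyte level were not mirror images outside irradiated 1. The leukocyte median was 11.40, 11.52, 11.68 and 11.64 in controls 1 to 4, while the basal keratin median of these arrays was 7.24, 9.84, 8.53 and 10.73. The Langerhans cell median was 11.54 in control 1, which had the lowest basal keratins, and 10.57 in control 4, which had the highest of the controls, but it was also 10.58 in control 3, whose basal keratins were the second lowest. In irradiated 2 and 3 the Langerhans cell medians of 11.63 and 11.41 stood beside basal keratin medians of 10.23 and 9.56. As a gauge of keratinocyte RNA, Krt5 and Krt14 ranked the arrays as the integrin gene Itga6 of the hemidesmosome did, while Krt1, Krt10, Krt8 and Krt33b each ranked them differently. The controls were ranked the same way by the fibroblast genes Dcn and Sparc.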

How the data were processed

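Transcript levels of sorted Langerhans cells were measured on 7 arrays, 3 of irradiated and 4 of control samples. The deposited values are intensities that the authors made with RMA, per the submitters' processing notes. They are on a linear scale, per the values themselves, and both deposited tables are equal in all 174454 values. Which arrays were normalised together, and the probe annotation's build, are not stated in the labels. The number of arrays limits precision.

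Log2 was taken, the brightest probe set kept per symbol, and the lowest 40% by mean left out. Irradiated minus control was fitted with lmFit and eBayes (trend) from limma 3.58.1 (R 4.3.3), and p-values were adjusted by Benjamini-Hochberg over 13053 genes. The test was tried on simulated data with known changes. Alternatives changed the filter, scaling, variance model, probe set rule and samples. Members, classes and marker lists were chosen with earlier results of these data known. Keratins are named as Krt5, Krt14, Krt10, the 4 brightest of each class and the extremes of change, and marker genes as the 2 brightest of a list (of which Col17a1, Plec, Dcn and Sparc are printed) with Dsp, Trp63, Cd207 and Ptprc. Further genes were chosen after their values were seen: Krt9, Krt16, Krt20, Krt77, Krt78, Krt86, Dst, Dsc1, Itga6, Ovol1 and Xist. Flg, Krt3, Krt72, Krt81, Krt85, Krt87, Krt90, Tfap2a, Tfap2c, Piezo2, Spi1 and Pmel are on the lists and were not matched by symbol. One marker result is not reported here.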

Additional observations from a re-analysis of the deposited data

Results flagged for a closer look

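Among the 4 controls, a single array lay far from the others for 2 of 36 keratin levels and class medians examined. Chance flags about 1 in 20 such groups. Krt71, an inner root sheath keratin, was at 6.48 in control 1 and at 5.72 to 5.82 in the other controls. Krt76, a keratin of the palate, was at 4.57 in control 1 and held exactly equal values of 4.75 in the other controls. Both genes were dim on average.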

How the results depend on the processing

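The 26 tested keratins gave 0 calls under every alternative run except array weights, where 3 passed: Krt1 (-2.74), Krt7 (0.43) and Krt27 (0.36). Leaving out each array in turn gave 0 calls each time. The medians over all, basal, suprabasal, simple and hair shaft keratins moved by less than the spread between arrays under the alternatives run for them, which do not include the changes of filter. Medians of the other classes were recomputed only without irradiated 1. The ranges with each array left out were 0.08 to 0.27 for all keratins, 0.53 to 1.69 for the basal, 0.08 to 0.47 for the suprabasal, -0.04 to 0.38 for the simple and 0.09 to 0.23 for the hair shaft keratins. Directions turned for a few genes. Krt80 was at 0.076 with quantile normalisation and ran from -0.46 to 0.018 with each array left out. Krt17 was at -0.30 with array weights and -0.37 without irradiated 1 and control 1, and ran from -0.28 to 1.18 with each array left out. Krt79 was at -0.020 without irradiated 1 and control 1. With each array left out, Krt75 ran from -0.0014 to 0.50, Krt8 from -0.042 to 0.39 and Krt33b from -0.00050 to 0.16, and Krt33b was at -0.00050 with the replicate block. The cause was not tested. The pair left out together was chosen after seeing the data. Same-numbered samples' deviations from their group means correlated at 0.021, -0.055 and 0.168, and 1 of 3 irradiated samples correlated best with its own number. Whether the replicate numbers pair the samples cannot be decided from this. Irradiated 1, which stood apart, moves the mean from which irradiated 2 and 3 deviate. The replicate block was fitted without control 4, and 0 keratins and 0 of all genes passed. Without control 4 and without the block 2 genes passed, against 219 with all 7 arrays. With the earlier record as a term, over all 7 arrays, 1 gene passed.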
